A study of Arabidopsis thaliana with 12 samples.

Results

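The comparison set shoots of cdk8-1, an Arabidopsis thaliana line mutated in the kinase gene CDK8, against shoots of the wild type Col-0 when both had been raised without sulfate. It covered every locus whose mean was at least 1 TPM, the length-scaled share of transcripts, over the 12 libraries of the study, which kept 19127 of 32833 loci. Total RNA was made into libraries with a kit that records strand. Each genotype had 3 libraries without sulfate, labelled 0 mM magnesium sulfate, and 3 with 1.5 mM, and in the plates without sulfate magnesium chloride took the place of the sulfate salt. All 12 libraries came from seedlings 10 days old, grown on washed agar with diluted Murashige and Skoog medium, whose shoots were cut from the roots. The mutant was 1 line, and its labels give neither the nature of the cdk8-1 allele nor a complemented line. The labels do not say that the 3 libraries of a group came from separate plates or days, so every p-value measures the spread between these libraries. Reads recovered from the TPM values came to between 18434113 and 25274262 per library without sulfate.

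Mediator is a large protein complex that passes signals from gene-specific transcription factors to RNA polymerase II. Its kinase module, made of CDK8, a C-type cyclin, MED12 and MED13, docks on the core complex and can restrain or assist transcription. In Arabidopsis the module has been tied to jasmonate and salicylate defense, to cold and drought responses and to the signal that mitochondria send to the nucleus when respiration is impaired. A plant without sulfate cannot make enough cysteine, glutathione and glucosinolates, the sulfur-rich defense compounds of the cabbage family. It raises sulfate uptake, breaks down glucosinolates and, when starved for long, loses chlorophyll.

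CDK8 itself was read first. Without sulfate it stood at 33.3, 33.6 and 32.7 TPM in the wild type and 5.19, 5.203 and 6.09 TPM in the mutant. The lowest Col-0 library was far above the highest mutant library (log2 fold change -2.40, SE 0.13, limma adjusted p = 5.7e-08). With sulfate the means were 22.8 ± 1.71 TPM in the wild type and 3.99 ± 1.02 TPM in the mutant, and no change of the genotype difference with supply was detected (interaction -0.13, SE 0.18, limma adjusted p = 0.65). Of the other Mediator subunits examined, REF4, a tail subunit also called MED5, rose by 0.25 on the log2 scale and AT5G48630, a C-type cyclin locus, by 0.21 (limma adjusted p = 0.008 and 0.048). The rise of AT5G48630 was lost after median-of-ratios scaling. The remaining 15 of 18 subunits did not pass the test.

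Over all tested loci, 7900, or 41.3% of those tested, passed an adjusted p of 0.05 in limma without sulfate. Of these 5028 (26.3% of loci) were higher in cdk8-1 and 2872 (15.0%) were lower. Rescaling the libraries by the median of ratios moved the median log2 fold change of all loci from 0.08 to 0.01 and changed the split to 3996 higher (20.9%) and 3639 lower (19.0%), or 39.9% in either direction, so 63.6% of calls were higher on the deposited scale and 52.3% after rescaling. No locus called on both scales changed direction. The 3 libraries of a genotype did not overlap those of the other at 57.1% of loci, 35.0% with the mutant higher and 22.2% with it lower. Differences of at least 2-fold that passed the test numbered 1018 higher (5.32%) and 796 lower (4.16%). With sulfate the same contrast called 1693 loci higher (8.85%) and 925 lower (4.84%), although median-of-ratios scaling turned that split to 850 higher and 1224 lower. A test of whether the genotype difference itself depended on supply, the interaction, called 2831 loci with a more positive difference without sulfate (14.8%) and 2340 with a more negative one (12.2%). Of the loci called without sulfate, 4263 (54.0%) were also called in the interaction. The contrasts at the 2 supplies share no library. Both called the same locus in the same direction 1051 times and in opposite directions 391 times.

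**Figure D1:**
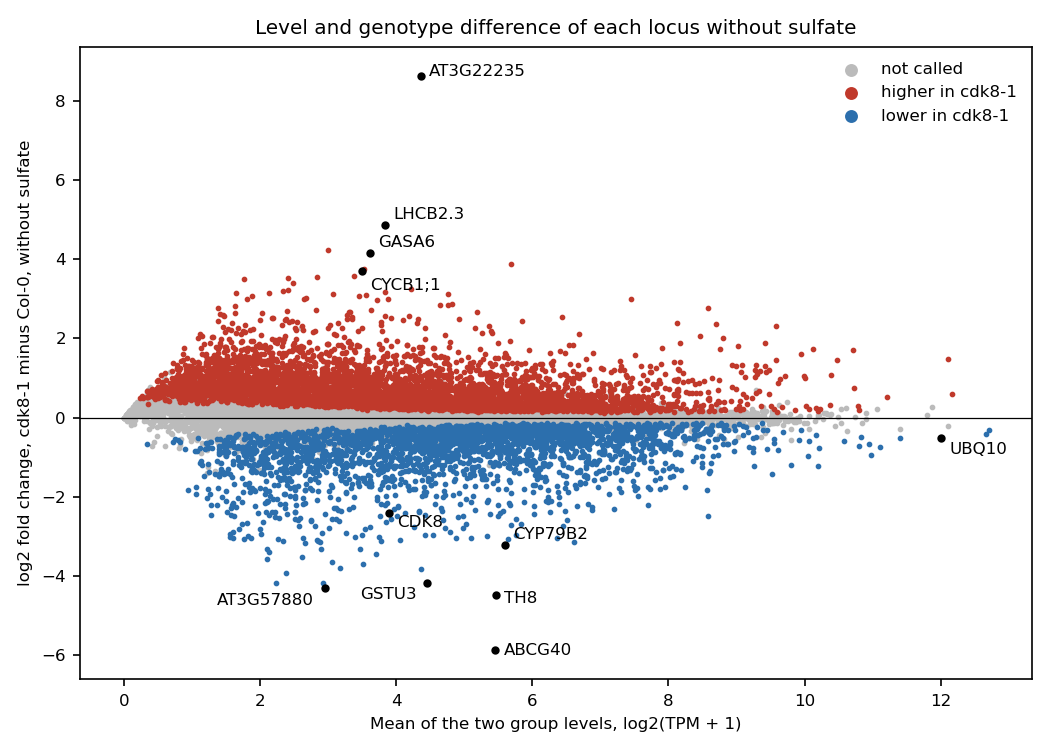
Each point is 1 of 19127 loci, placed by its mean level in both genotypes without sulfate (x axis, log2(TPM + 1)) and by the difference of cdk8-1 from Col-0 (y axis, log2 fold change). Red loci were higher and blue loci lower at a limma adjusted p below 0.05, and the loci marked in black include CDK8 at -2.40, AT3G22235 at 8.63 and ABCG40 at -5.88.

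The libraries held shoot transcripts in both genotypes. Summed over 11 leaf and shoot markers they carried 198 to 226 TPM in the wild type and 268 to 282 TPM in the mutant. The 8 root markers summed to 3.28 to 4.34 TPM and 3.83 to 11.4 TPM, and the 9 seed storage markers to 0 to 0.0996 TPM and 1.96 to 6.40 TPM. With sulfate, 1 cdk8-1 library carried 241.9 TPM of seed storage transcripts; its part in the results was not tested. Among 11 reference genes commonly used for normalisation, ACT2 and GAPC2 were higher, UBQ10 was lower and the other 8 did not pass the test. Among all loci 26.3% were higher and 15.0% lower. UBQ10, a polyubiquitin gene, was at 4888 ± 187 TPM in the wild type and 3445 ± 109.7 TPM in the mutant (SD, n = 3; log2 fold change -0.50, SE 0.07, limma adjusted p = 6e-05). ACT7 was at 576 ± 23.1 TPM in the wild type and 582 ± 25.8 TPM in the mutant (limma adjusted p = 0.86).

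The largest rise belonged to AT3G22235, annotated as a cysteine-rich transmembrane module stress tolerance protein. It was at 0, 0 and 0.103 TPM in the wild type and 459, 386 and 383 TPM in the mutant, so it was near the bottom of the scale in every wild-type library and among the well-expressed genes in every mutant library. On the log2(TPM + 1) scale the difference was 8.63 (SE 0.31, limma adjusted p = 4.2e-09). With sulfate it was also higher in the mutant, at 20.8, 19.9 and 61.1 TPM, and was listed at 0 in every Col-0 library. Since the wild-type values were 0 or near it, the size of this log2 difference depends on the pseudocount of 1. AT1G13609, a defensin-like gene, was listed at 0 in all 3 Col-0 libraries without sulfate and stood at 11.1, 8.03 and 12.4 TPM in cdk8-1; with sulfate its means were 8.62 and 157 TPM in Col-0 and cdk8-1. The others of the 12 largest rises included LHCB2.3, a light-harvesting protein gene, GASA6, a gibberellin-regulated gene linked to growth, and CYCB1;1, a mitotic cyclin, and 2 loci annotated as a pectin lyase-like protein (AT5G63180) and a lipid-transfer-like protein (AT2G10940). GASA6 was at 1.85, 1.52 and 2.11 TPM in the wild type and 30.1, 71.8 and 55.0 TPM in the mutant (log2 fold change 4.16, SE 0.22, limma adjusted p = 5.7e-08). With sulfate its means were 294 and 286 TPM.

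The largest fall was that of ABCG40, a plasma membrane transporter of the pleiotropic drug resistance type that imports abscisic acid. It was at 304, 322 and 369 TPM in the wild type and 3.63, 4.096 and 6.63 TPM in the mutant. Every mutant library lay more than an order of magnitude below every wild-type library (log2 fold change -5.88, SE 0.16, limma adjusted p = 5.9e-10). With sulfate both genotypes were low, at 1.53 and 1.399 TPM, and the interaction was -5.79 (limma adjusted p = 4.5e-08). TH8, a thioredoxin of the h type, was at 192, 189.5 and 239 TPM in the wild type and 8.93, 7.13 and 9.003 TPM in the mutant (log2 fold change -4.47, SE 0.25, limma adjusted p = 7e-08). AT3G57880, a calcium-dependent lipid-binding protein gene, was at 32.6, 34.5 and 33.2 TPM in the wild type and 0.844, 0.779 and 0.621 TPM in the mutant (log2 fold change -4.30, SE 0.12, limma adjusted p = 5.9e-10), and it was low in the mutant with sulfate too (15.3 ± 1.35 TPM in the wild type and 1.72 ± 0.335 TPM in the mutant). 5PTASE11, an inositol polyphosphate phosphatase, was at 26.1, 30.6 and 37.3 TPM in the wild type and 0.798, 0.585 and 0.948 TPM in the mutant. CSLG2, a cellulose synthase-like gene, was at 27.7, 32.6 and 38.6 TPM in the wild type and 1.203, 1.31 and 1.77 TPM in the mutant. PGAZAT, a polygalacturonase of the kind that loosens pectin where organs are shed, was at 19.5, 33.1 and 34.1 TPM in the wild type and 1.05, 1.49 and 1.404 TPM in the mutant. These 3 genes were below 1 TPM in both genotypes with sulfate. The 12 largest rises and 12 largest falls were drawn from called loci without overlap between the groups. Their lack of overlap was therefore set by that choice. Genes named below from lists were mostly the called members with the smallest p. That choice favours groups that do not overlap, and 57.1% of all loci did not.

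Genes of photosynthesis were higher in the mutant as a group. Of 42 nuclear genes for the light reactions, 41 rose and 0 fell, with a median log2 fold change of 1.2 against 0.08 over all loci; the exception, LHCB4.3, did not pass the test. All 21 Calvin cycle and carbonic anhydrase genes rose (median 1.1). The summed level of the 42 light-reaction genes was 14767 to 15618 TPM in the Col-0 libraries and 36192 to 45283 TPM in those of cdk8-1. With sulfate the same sum was 217994 to 227822 TPM in the wild type and 189576 to 199362 TPM in the mutant, so the mutant without sulfate lay between the starved wild type and either genotype with sulfate. With sulfate 0 of the 42 were higher in the mutant and 16 were lower, and in the interaction all 42 had a more positive difference without sulfate. In such bulk samples fewer cells of a type and less RNA per cell cannot be told apart.

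LHCB1.1, which encodes a main antenna protein of photosystem II, was at 336, 332 and 349.7 TPM in the wild type and 1595, 2097 and 1458 TPM in the mutant (log2 fold change 2.32, SE 0.11, limma adjusted p = 2.4e-08). LHCB2.2, of the same antenna, was at 159.9, 142 and 132 TPM in the wild type and 972, 1261 and 805 TPM in the mutant (log2 fold change 2.78, SE 0.13, limma adjusted p = 2e-08). LHCB2.3 was at 1.75, 1.63 and 1.41 TPM in the wild type and 79.5, 103 and 51.0 TPM in the mutant (log2 fold change 4.87, SE 0.18, limma adjusted p = 5.5e-09). Genes on the other strand overlap a fraction of 0.41 of its exonic length, 0.22 for CYP71A13, 0.23 for GASA6, 0.21 for WRKY53, 0.16 for ASB1 and 0.14 for TIP2;1. Whether reads were counted by strand was not given in the sources used here, and values of these 6 genes are uncertain for that reason. In each of the 3 the groups were far apart. PSBS, which protects photosystem II by dissipating excess light energy, rose from 65.5 ± 3.64 to 184 ± 9.76 TPM (limma adjusted p = 1e-08). RBCS1A and RBCS3B, small subunits of the carbon-fixing enzyme Rubisco, rose together. RBCS1A was at 855 ± 13.4 TPM in the wild type and 2369.9 ± 252 TPM in the mutant (SD, n = 3). RBCS3B was at 148 ± 5.53 TPM in the wild type and 554 ± 76.8 TPM in the mutant. Their log2 fold changes were 1.465 (limma adjusted p = 6e-08) and 1.89 (limma adjusted p = 1.8e-08). PRK, the phosphoribulokinase that regenerates the CO2 acceptor, rose from 71.7 ± 2.71 to 156 ± 14.7 TPM (limma adjusted p = 9.5e-08).

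Chlorophyll synthesis and breakdown moved apart. Of 12 synthesis genes tested, 11 rose and 0 fell (median 0.85), whereas of 9 breakdown genes 0 rose and 5 fell (median -0.43). CHLH, a subunit of the magnesium chelatase that opens the chlorophyll branch, was at 139, 126 and 108 TPM in the wild type and 249, 273 and 223 TPM in the mutant (log2 fold change 0.99, SE 0.09, limma adjusted p = 3.7e-06). SGR1, the magnesium dechelatase that starts chlorophyll degradation, was at 137, 132 and 134 TPM in the wild type and 67.4, 72.8 and 74.1 TPM in the mutant (log2 fold change -0.90, SE 0.06, limma adjusted p = 3.4e-07). NYC1, a chlorophyll b reductase, was at 375, 414 and 393 TPM in the wild type and 208, 211 and 216 TPM in the mutant (log2 fold change -0.89, SE 0.09, limma adjusted p = 9.4e-06). The groups did not overlap in any of the 3. With sulfate the means of SGR1 were 12.1 and 13.0 TPM in Col-0 and cdk8-1.

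Markers of leaf senescence were lower. Of 12 tested, 9 fell and 0 rose (median -1.1). SAG29, a sugar transporter gene of old leaves, was at 60.5, 68.0 and 60.3 TPM in the wild type and 6.05, 5.43 and 10.8 TPM in the mutant (log2 fold change -2.97, SE 0.32, limma adjusted p = 1.4e-05). With sulfate its means were 4.95 and 10.2 TPM, and the interaction was -3.94 (limma adjusted p = 6e-05). SAG113, a protein phosphatase linked to water loss in ageing leaves, fell from 21.7 ± 3.36 to 3.71 ± 0.228 TPM (limma adjusted p = 1.8e-06). SRG1 fell from 179.8 ± 2.24 to 64.2 ± 7.27 TPM (limma adjusted p = 4.3e-07). NAP, a NAC transcription factor that promotes senescence, fell by 1.54 on the log2 scale (limma adjusted p = 0.00048). Of 13 autophagy genes 4 fell and 1 rose, against 15.0% and 26.3% of all loci. Their median, -0.14, lay closer to that of all loci. ATG8A, a ubiquitin-like protein of the autophagosome membrane, was at 182 ± 13.1 TPM in the wild type and 95.4 ± 4.89 TPM in the mutant. Its relative ATG8H was at 93.3 ± 14.3 TPM in the wild type and 40.2 ± 7.66 TPM in the mutant.

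**Figure D2:**
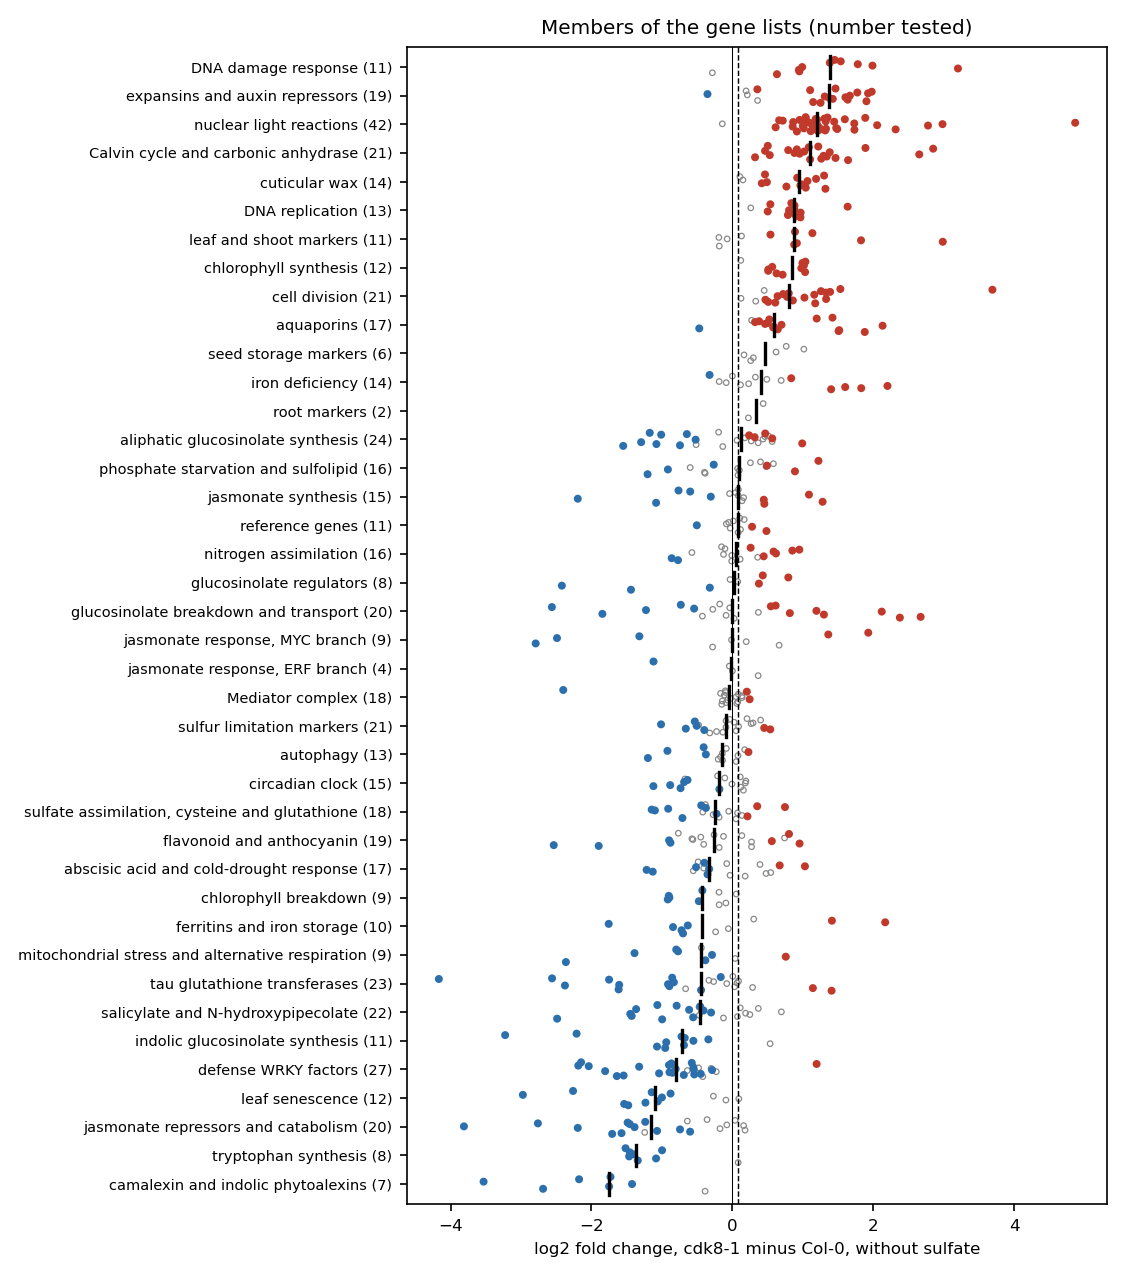
Each point is 1 gene of the list named at the left, placed by its log2 fold change of cdk8-1 against Col-0 without sulfate (x axis). Filled points passed limma's adjusted p of 0.05, open ones did not, black bars are list medians and the dashed line is the median of all loci, 0.08. Lists run from camalexin and indolic phytoalexins at -1.75 to DNA damage response at 1.38.

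Genes of dividing and growing tissue were higher in the mutant. Of 21 cell division genes 18 rose and none fell (median 0.80), and of 13 DNA replication genes 12 rose and none fell (median 0.88). CYCB1;1 was at 1.90, 2.66 and 1.87 TPM in the wild type and 34.8, 40.2 and 43.6 TPM in the mutant (log2 fold change 3.69, SE 0.14, limma adjusted p = 7.1e-09). Its level in the mutant without sulfate was also above the 7.30 and 7.70 TPM of Col-0 and cdk8-1 with sulfate. CYCB1;2, a close relative, was at 1.07, 0.857 and 0.933 TPM in the wild type and 4.85, 4.49 and 4.60 TPM in the mutant (log2 fold change 1.53, SE 0.11, limma adjusted p = 4.9e-07), below its means with sulfate of 35.4 and 36.7 TPM. CYCB1;1 thus rose by more on the log2 scale than CYCB1;2, and the pair stood on opposite sides of their with-sulfate levels. That contrast between the pair was not tested. CDC20.1, an activator of the anaphase-promoting complex, rose from 1.37 ± 0.301 to 5.17 ± 0.521 TPM, and MCM7, a subunit of the replicative helicase, rose from 3.46 ± 0.452 to 7.20 ± 0.194 TPM (limma adjusted p = 3.4e-06 and 0.0002).

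DNA damage response genes rose as well, 10 of 11 tested (median 1.38). SMR7, an inhibitor of cyclin-dependent kinases that arrests the cycle after DNA damage, was at 0.524, 0.272 and 1.26 TPM in the wild type and 13.4, 12.7 and 16.3 TPM in the mutant (log2 fold change 3.20, SE 0.25, limma adjusted p = 8.6e-07). With sulfate it was below 1 TPM on average in both genotypes (0.567 and 0.588 TPM). PARP2, a poly(ADP-ribose) polymerase that marks broken DNA, was at 9.54, 10.2 and 9.47 TPM in the wild type and 39.4, 44.9 and 40.8 TPM in the mutant (log2 fold change 1.99, SE 0.12, limma adjusted p = 1.4e-07). BRCA1 rose from 1.21 ± 0.0403 to 6.63 ± 1.04 TPM, GMI1, a gene for recombination at breaks, rose from 27.1 ± 3.02 to 80.6 ± 7.72 TPM, and XRI1 rose from 8.54 ± 0.382 to 25.1 ± 1.92 TPM (limma adjusted p = 6e-06, 1.1e-06 and 9e-07). CYCB1;1 is known as a target of the same damage pathway and was kept in the cell division list. GMI1 was the member called higher in the mutant with sulfate with the largest log2 fold change there, 1.13 (limma adjusted p = 0.00018). SOG1, the transcription factor that heads this pathway, did not pass the test (17.8 ± 1.33 TPM in the wild type and 14.5 ± 1.36 TPM in the mutant, limma adjusted p = 0.056), but was called lower after median-of-ratios scaling.

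Expansins, which loosen cell walls, and the Aux/IAA repressors of auxin response rose in 15 of 19 cases and fell in 1 (median 1.38). IAA7 was at 25.4, 25.4 and 24.6 TPM in the wild type and 98.0, 102 and 95.1 TPM in the mutant, 2 tight groups (log2 fold change 1.93, SE 0.06, limma adjusted p = 1.5e-09). EXPA11 rose from 1.41 ± 0.324 to 8.10 ± 1.95 TPM (limma adjusted p = 2.3e-06). Aquaporins, the water channels of the plasma and vacuolar membranes, rose in 15 of 17 cases, with TIP2;1, a vacuolar channel, going from 17.3 ± 1.24 to 80.0 ± 13.2 TPM (limma adjusted p = 1.3e-06). Of 14 cuticular wax genes 12 rose and none fell (median 0.94); CER3, an enzyme of alkane formation, went from 29.0 ± 1.49 to 73.1 ± 7.16 TPM (limma adjusted p = 8.7e-08). Among 11 leaf and shoot markers 7 rose, among them PDF1 and ATML1 of the epidermis and YAB1 of the lower leaf side. YAB1 was at 4.27, 4.13 and 3.13 TPM in the wild type and 16.1, 15.4 and 16.7 TPM in the mutant (log2 fold change 1.83, SE 0.10, limma adjusted p = 5.4e-08). PDF1 was at 3.55, 1.91 and 8.07 TPM in the wild type and 46.3, 32.6 and 36.6 TPM in the mutant, with a wide spread among the wild-type libraries and no overlap (log2 fold change 2.99, SE 0.29, limma adjusted p = 6e-06).

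Of 21 markers of sulfur limitation tested, 2 rose and 5 fell (median -0.09), against 26.3% and 15.0% of all loci, and 14 had no overlap between the groups, against 57.1% of all loci. How many passed depended on the libraries in the fit, as given below for the 6 without sulfate. LSU1, a small regulatory protein gene that marks sulfur deficiency, was at 1331, 1217 and 1174 TPM in the wild type and 1509, 1265 and 1196 TPM in the mutant. SDI1, a repressor of glucosinolate synthesis induced by sulfur deficiency, was at 1499.5, 1326 and 1314 TPM in the wild type and 1762, 1503 and 1521 TPM in the mutant. The groups overlapped for LSU1 and just failed to overlap for SDI1, and neither gene passed the test (log2 fold change 0.09, SE 0.64, limma adjusted p = 0.93 for LSU1, and log2 fold change 0.21, SE 0.60, limma adjusted p = 0.81 for SDI1). Both were far lower with sulfate, where the means were 16.0 and 11.3 TPM for LSU1 and 22.6 and 9.84 TPM for SDI1. The spread of these genes among the with-sulfate libraries enters the shared variance. A fit of the 6 libraries without sulfate alone, in which it does not, called 5 markers higher and 8 lower, among them LSU2, at 712, 754 and 756 TPM in the wild type and 1072, 967 and 901 TPM in the mutant (log2 fold change 0.40, adjusted p = 0.0021 in that limma fit). LSU1 and SDI1 were not called in that fit either. Among all loci, the fit of the 6 libraries called 5244 higher and 3450 lower. The main fit, with every library, called 5028 higher and 2872 lower. Calls thus rose among all loci too, but in smaller proportion than among the 21 markers. The markers went from 2 higher and 5 lower to 5 higher and 8 lower.

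Sulfate transporters split. SULTR1;1, the high-affinity uptake transporter, was at 21.6, 21.2 and 31.3 TPM in the wild type and 13.7, 9.09 and 12.3 TPM in the mutant (log2 fold change -1.01, SE 0.18, limma adjusted p = 0.00068). SULTR4;1, which empties sulfate from the vacuole, fell from 184 ± 9.09 to 127 ± 2.63 TPM (limma adjusted p = 1.2e-05). Its paralog SULTR4;2 rose from 101 ± 10.08 to 138 ± 0.521 TPM (limma adjusted p = 0.00088). BGLU28 and BGLU30, beta-glucosidases that break down glucosinolates under sulfur deficiency, fell. BGLU28 was at 2463, 2295 and 2681 TPM in the wild type and 1658, 1446 and 1598 TPM in the mutant. BGLU30 was at 3098, 3144 and 3446 TPM in the wild type and 2237, 2255 and 2319 TPM in the mutant. Both pairs of groups were separate, with log2 fold changes of -0.66 and -0.51 (limma adjusted p = 0.0025 and 0.00022), although with a pseudocount of 0.1 TPM neither passed.

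Of 18 genes for sulfate assimilation, cysteine and glutathione, 3 rose and 7 fell (median -0.25), against 26.3% and 15.0% of all loci. GSH1, the first enzyme of glutathione synthesis, was at 149, 156 and 190.3 TPM in the wild type and 71.1, 74.9 and 82.4 TPM in the mutant (log2 fold change -1.099, SE 0.08, limma adjusted p = 7.8e-07), while with sulfate the genotypes were at 156 and 156 TPM. SIR, sulfite reductase, was at 379.98, 374 and 427 TPM in the wild type and 196, 208 and 222 TPM in the mutant (log2 fold change -0.91, SE 0.08, limma adjusted p = 1.7e-06). APK2, which makes the sulfate donor used in glucosinolate synthesis, fell from 89.1 ± 5.47 to 39.98 ± 6.02 TPM (limma adjusted p = 0.00064). In all 3 the mutant lay below the wild type in every library.

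Indolic glucosinolate synthesis was lower almost throughout. Of 11 genes 10 fell and none rose (median -0.72). CYP79B2, which makes indole-3-acetaldoxime from tryptophan, was at 149, 121 and 169.9 TPM in the wild type and 11.9, 13.95 and 18.7 TPM in the mutant (log2 fold change -3.23, SE 0.29, limma adjusted p = 3.2e-06). CYP81F2, which modifies the indole ring, was at 93.7, 99.2 and 133 TPM in the wild type and 23.8, 19.1 and 24.8 TPM in the mutant (log2 fold change -2.21, SE 0.24, limma adjusted p = 1.5e-05), and it was lower with sulfate too (29.7 ± 11.2 TPM in the wild type and 8.04 ± 1.77 TPM in the mutant). Each mutant library was below each wild-type library in both genes. Of the MYB regulators of this branch, MYB122 was at 7.60, 7.08 and 9.64 TPM in the wild type and 0.677, 0.505 and 0.907 TPM in the mutant (log2 fold change -2.42, SE 0.16, limma adjusted p = 2e-07). MYB51 was at 51.8, 51.9 and 68.2 TPM in the wild type and 19.4, 18.7 and 23.1 TPM in the mutant (log2 fold change -1.44, SE 0.19, limma adjusted p = 7.7e-05). MYB34 rose instead, being at 2.00, 2.07 and 1.92 TPM in the wild type and 4.98, 2.84 and 5.10 TPM in the mutant (log2 fold change 0.79, SE 0.23, limma adjusted p = 0.014). The aliphatic branch, which uses methionine, was mixed, with 5 of 24 genes higher and 8 lower (median 0.12), against 26.3% and 15.0% of all loci. CYP79F2, an entry enzyme of that branch, fell from 7.64 ± 0.486 to 1.98 ± 0.561 TPM (limma adjusted p = 0.0019). MYB28, its main regulator, was at 18.0, 16.8 and 14.8 TPM in the wild type and 25.9, 22.4 and 19.8 TPM in the mutant (limma adjusted p = 0.023, not passed after median-of-ratios scaling), and MYB29 was at or below 0.365 TPM in all 6 libraries.

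The 8 glucosinolate regulators tested included 3 that rose and 3 that fell, against 26.3% and 15.0% of all loci. After median-of-ratios scaling 1 rose and 3 fell, against 20.9% and 19.0%. The count of higher aliphatic genes was 3 after that scaling and as low as 2 when single libraries without sulfate, Col-0 replicates 2 or 3 or cdk8-1 replicates 1 or 2, were left out.

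Genes of glucosinolate breakdown and transport went both ways, 8 of 20 higher and 5 lower, against 26.3% and 15.0% of all loci. NSP1, a specifier protein that steers breakdown towards nitriles, was at 51.5, 49.0 and 43.5 TPM in the wild type and 257, 196 and 188 TPM in the mutant (log2 fold change 2.12, SE 0.11, limma adjusted p = 4.2e-08). PYK10, a beta-glucosidase of ER bodies, was at 316, 303 and 341 TPM in the wild type and 1011, 644 and 752 TPM in the mutant (log2 fold change 1.3, SE 0.15, limma adjusted p = 2.1e-05). BGLU18, of the same organelle, was at 8.32, 19.9 and 11.1 TPM in the wild type and 54.1, 161 and 67.0 TPM in the mutant (log2 fold change 2.67, SE 0.35, limma adjusted p = 6.2e-05). ESM1, which favours isothiocyanates over nitriles, was at 45.5, 49.0 and 50.6 TPM in the wild type and 12.4, 11.1 and 14.9 TPM in the mutant (log2 fold change -1.84, SE 0.18, limma adjusted p = 5.2e-06). NIT4, a nitrilase that detoxifies cyanide products, was at 19.3, 14.1 and 24.96 TPM in the wild type and 2.32, 2.35 and 2.47 TPM in the mutant (log2 fold change -2.56, SE 0.18, limma adjusted p = 3.2e-07). The groups were apart in all 5, as they were at 57.1% of all loci. NSP1 and ESM1 differed in the same directions with sulfate (log2 fold changes 0.98 and -2.10), while NIT4 did not pass there (-0.15, limma adjusted p = 0.63).

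Tryptophan is the precursor of indolic glucosinolates and of camalexin, the main phytoalexin of Arabidopsis. Of 8 tryptophan synthesis genes 7 fell and none rose (median -1.37). ASA1, the regulated first enzyme, was at 139.7, 133 and 158 TPM in the wild type and 49.1, 47.7 and 58.7 TPM in the mutant (log2 fold change -1.455, SE 0.12, limma adjusted p = 1.1e-06). TSB1, the tryptophan synthase beta subunit, was at 376, 368 and 450.4 TPM in the wild type and 128, 134 and 153 TPM in the mutant (log2 fold change -1.52, SE 0.10, limma adjusted p = 1.8e-07). Camalexin and related indolic phytoalexins showed 6 of 7 lower and none higher, with the lowest list median, -1.75. PAD3, which makes camalexin in its last step, was at 221, 223 and 266 TPM in the wild type and 42.5, 45.1 and 70.8 TPM in the mutant (log2 fold change -2.18, SE 0.23, limma adjusted p = 1e-05). CYP71A13 was at 23.9, 13.8 and 22.0 TPM in the wild type and 0.579, 0.528 and 1.26 TPM in the mutant (log2 fold change -3.53, SE 0.25, limma adjusted p = 4.3e-07). CYP71A12, next to it in the genome and close in sequence, stood at 1070.3, 1198 and 1312 TPM in the wild type and 359, 487 and 497 TPM in the mutant (log2 fold change -1.42, SE 0.23, limma adjusted p = 0.00031). Reads of that pair may be split by the counting. Mutant and wild-type libraries did not overlap in any of these genes. With sulfate PAD3 was at 1.48 and 0.985 TPM and CYP71A12 at 10.4 and 18.0 TPM.

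Of 27 WRKY factors of defense, 20 fell and 1 rose (median -0.81). WRKY51 was at 107, 105 and 103 TPM in the wild type and 23.7, 19.9 and 25.3 TPM in the mutant (log2 fold change -2.15, SE 0.13, limma adjusted p = 1.6e-07). WRKY75 was at 172, 166 and 197 TPM in the wild type and 32.1, 39.7 and 43.9 TPM in the mutant (log2 fold change -2.19, SE 0.14, limma adjusted p = 2.3e-07). WRKY62 was at 4.66, 5.60 and 6.28 TPM in the wild type and 0.532, 0.509 and 0.696 TPM in the mutant (log2 fold change -2.04, SE 0.17, limma adjusted p = 1.6e-06). Groups were separate in all 3, and in 12 of the 27 the interaction was called with a more negative difference without sulfate. With sulfate WRKY51, WRKY75 and WRKY62 were below 1 TPM in every library, so a genotype difference could hardly show there. WRKY50 was the 1 that rose (log2 fold change 1.196, limma adjusted p = 1.2e-05). WRKY53 was at 22.0 ± 4.31 TPM in the wild type and 15.5 ± 3.39 TPM in the mutant, and WRKY70 at 372 ± 34.1 TPM in the wild type and 239.6 ± 34.6 TPM in the mutant. Neither passed the test.

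WRKY proteins bind the W-box, so the 250 bases upstream of the annotated start were searched for it, spelled as TTGACC or TTGACT on either strand. It was found upstream of 28.2% of 19126 loci, of 35.9% of the 796 that fell by at least 2-fold and of 26.1% of the 1018 that rose by at least 2-fold. For 2 or more occurrences the shares were 6.11%, 12.6% and 5.30%. Within lists, 14 of 23 tau glutathione transferases (60.9%), 5 of 8 tryptophan synthesis genes (62.5%) and 8 of 42 light-reaction genes (19.0%) held at least 1. The other lists searched were camalexin and indolic phytoalexins (4 of 7, 57.1%), the WRKY factors themselves (12 of 27, 44.4%), indolic glucosinolate synthesis (4 of 11, 36.4%) and the Calvin cycle list (4 of 21, 19.0%). The other motifs searched in the same way, each on both strands and none lying within another, were the G-box CACGTG (7.27% of all loci, 9.05% of those lower and 7.56% of those higher by at least 2-fold), the GCC-box GCCGCC (2.07%, 3.52% and 0.884%), the sulfur-responsive core GAGAC (25.2%, 23.2% and 25.8%) and the I-box GATAAG of light-regulated genes (12.4%, 13.4% and 13.7%). These are matches of letters in a fixed window. The following windows, from the RefSeq sequence of build TAIR10.1 and reaching no other annotated gene, show W-boxes in capitals upstream of 4 genes that fell, with GGTCAA and AGTCAA being the motif on the other strand, and the window of ABCG40, the largest fall, in which no W-box was found. They lie at chr2:12629641-12629890 on the minus strand for GSTU3, chr4:15462100-15462349 on the plus strand for CYP82C2, chr1:8839610-8839859 on the minus strand for ASB1, chr5:352096-352345 on the minus strand for WRKY62 and chr1:5338327-5338576 on the minus strand for ABCG40.
GSTU3: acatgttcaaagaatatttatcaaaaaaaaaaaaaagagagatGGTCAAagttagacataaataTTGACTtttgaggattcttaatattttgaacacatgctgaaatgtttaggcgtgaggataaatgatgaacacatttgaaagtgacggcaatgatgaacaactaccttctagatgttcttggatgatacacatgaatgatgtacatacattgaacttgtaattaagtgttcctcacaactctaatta
CYP82C2: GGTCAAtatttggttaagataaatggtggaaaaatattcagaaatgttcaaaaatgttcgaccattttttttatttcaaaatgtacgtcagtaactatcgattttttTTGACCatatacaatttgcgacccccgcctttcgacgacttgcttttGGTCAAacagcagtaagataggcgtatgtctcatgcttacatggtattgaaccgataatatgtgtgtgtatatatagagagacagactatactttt
ASB1: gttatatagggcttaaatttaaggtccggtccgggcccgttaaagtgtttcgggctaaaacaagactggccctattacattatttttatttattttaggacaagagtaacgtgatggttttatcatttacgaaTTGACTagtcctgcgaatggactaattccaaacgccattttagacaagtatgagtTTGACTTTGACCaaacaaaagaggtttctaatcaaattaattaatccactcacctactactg
WRKY62: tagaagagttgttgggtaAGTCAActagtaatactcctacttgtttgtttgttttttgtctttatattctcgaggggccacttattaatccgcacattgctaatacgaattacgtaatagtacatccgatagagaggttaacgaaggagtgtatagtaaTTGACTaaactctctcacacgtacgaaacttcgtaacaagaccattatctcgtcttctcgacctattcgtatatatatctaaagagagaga
ABCG40: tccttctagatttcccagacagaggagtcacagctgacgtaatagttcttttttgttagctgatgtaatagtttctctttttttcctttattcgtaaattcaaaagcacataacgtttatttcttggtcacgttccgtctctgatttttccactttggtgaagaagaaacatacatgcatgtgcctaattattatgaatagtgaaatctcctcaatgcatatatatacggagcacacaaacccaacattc

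Counted as bases before the annotated start, the W-boxes of GSTU3 begin at 207 and 186, those of CYP82C2 at 250, 143 and 96, those of ASB1 at 117, 62 and 56 (the last pair adjoin), and those of WRKY62 at 232 and 91. The 4 genes had log2 fold changes of -4.17, -1.73, -1.34 and -2.04 (limma adjusted p = 3.4e-08, 0.00048, 1.6e-06 and 1.6e-06). CYP82C2, which hydroxylates indole carbonyl nitriles, was at 54.6, 52.6 and 65.3 TPM in the wild type and 16.3, 13.7 and 20.3 TPM in the mutant. ASB1, a subunit of anthranilate synthase, was at 98.2, 107 and 117 TPM in the wild type and 38.1, 43.1 and 43.7 TPM in the mutant.

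Salicylate and N-hydroxypipecolate are the signals of systemic resistance. Of 22 genes of these pathways tested, 12 fell and none rose (median -0.46). PBS3, which conjugates isochorismate on the way to salicylate, was at 233, 255 and 225 TPM in the wild type and 91.6, 89.7 and 93.0 TPM in the mutant (log2 fold change -1.37, SE 0.17, limma adjusted p = 4.7e-05). FMO1, the enzyme that makes N-hydroxypipecolate, was at 36.1, 39.1 and 35.7 TPM in the wild type and 6.78, 4.04 and 6.90 TPM in the mutant (log2 fold change -2.49, SE 0.21, limma adjusted p = 1.7e-06). UGT76B1, which glycosylates it, was at 48.2, 65.7 and 77.4 TPM in the wild type and 25.9, 16.7 and 25.5 TPM in the mutant (log2 fold change -1.45, SE 0.27, limma adjusted p = 0.00095). The groups did not overlap in any of the 3, and with sulfate all 3 were below 3 TPM in every library. ICS1, the first enzyme of salicylate synthesis, was instead at 116, 122 and 96.8 TPM in the wild type and 127, 103 and 122 TPM in the mutant (limma adjusted p = 0.74). PR1, the marker of salicylate response, was at 1193, 1633 and 1503 TPM in the wild type and 1640.1, 1602 and 1868 TPM in the mutant (limma adjusted p = 0.75). Neither passed.

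Jasmonate genes differed by role. Of 20 repressors and catabolic genes, 12 fell and none rose (median -1.15). JAZ1, a repressor that the hormone both removes and induces, was at 238, 262 and 318 TPM in the wild type and 86.1, 82.8 and 104 TPM in the mutant (log2 fold change -1.57, SE 0.42, limma adjusted p = 0.0096). JAZ5 was at 23.7, 23.4 and 25.2 TPM in the wild type and 6.79, 5.71 and 7.68 TPM in the mutant (log2 fold change -1.71, SE 0.31, limma adjusted p = 0.00073). JAZ3, JAZ9, JAZ11 and JAZ12 had log2 fold changes of 0.16, 0.18, -0.08 and 0.04 and did not pass. Among enzymes that inactivate the hormone, CYP94C1 was at 10.14, 12.6 and 14.3 TPM in the wild type and 1.97, 1.458 and 2.31 TPM in the mutant (log2 fold change -2.19, SE 0.29, limma adjusted p = 6.3e-05). The jasmonate-regulated JRG21 was at 39.2, 41.9 and 60.1 TPM in the wild type and 2.97, 6.06 and 11.1 TPM in the mutant (log2 fold change -2.76, limma adjusted p = 6.2e-05). AT2G38240, a 2-oxoglutarate-dependent oxygenase gene, was at 47.9, 77.0 and 109 TPM in the wild type and 3.11, 4.61 and 5.57 TPM in the mutant (log2 fold change -3.81, limma adjusted p = 2.5e-07). Their groups were apart. Of the synthesis genes 4 of 15 rose and 5 fell, against 26.3% of all loci higher and 15.0% lower. LOX4, a lipoxygenase that starts the pathway, was at 67.0, 59.5 and 66.2 TPM in the wild type and 14.1, 11.5 and 14.4 TPM in the mutant (log2 fold change -2.19, SE 0.34, limma adjusted p = 0.00025). AOC1, an allene oxide cyclase, was at 63.0, 55.1 and 61.1 TPM in the wild type and 139, 142 and 105 TPM in the mutant (log2 fold change 1.09, SE 0.16, limma adjusted p = 0.00016). With sulfate 8 of the 15 synthesis genes were lower in the mutant and 0 higher, against 4.84% and 8.85% of all loci. Of the 20 repressors and catabolic genes 6 were lower there and 0 higher. In the interaction 5 of these 20 had a more negative difference without sulfate and 1 a more positive one.

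Response genes of the MYC branch did not share a direction without sulfate, 2 of 9 higher and 3 lower, against 26.3% and 15.0% of all loci. With sulfate 5 of the 9 were lower and 0 higher, against 4.84% and 8.85%. VSP2, a storage protein induced by jasmonate, was at 35.5, 30.1 and 35.1 TPM in the wild type and 111, 119.9 and 50.5 TPM in the mutant (log2 fold change 1.36, SE 0.31, limma adjusted p = 0.0035). With sulfate it was lower in the mutant, at 74.4, 43.1 and 69.9 TPM in the wild type and 19.6, 10.5 and 13.6 TPM in the mutant (log2 fold change -2.03, SE 0.31, limma adjusted p = 0.0013), and the interaction was 3.39 (limma adjusted p = 0.00012). NAC019 and NAC055, transcription factors downstream of MYC2, fell, NAC019 being at 73.0, 74.2 and 98.5 TPM in the wild type and 9.19, 10.3 and 13.5 TPM in the mutant (log2 fold change -2.79, SE 0.21, limma adjusted p = 6.1e-07). ERF1, of the branch shared with ethylene, was at 7.54, 5.41 and 7.26 TPM in the wild type and 2.43, 2.55 and 2.58 TPM in the mutant (log2 fold change -1.12, SE 0.21, limma adjusted p = 0.00095; not passed with a pseudocount of 0.1 TPM), the 1 gene of 4 tested there that fell.

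**Figure D3:**
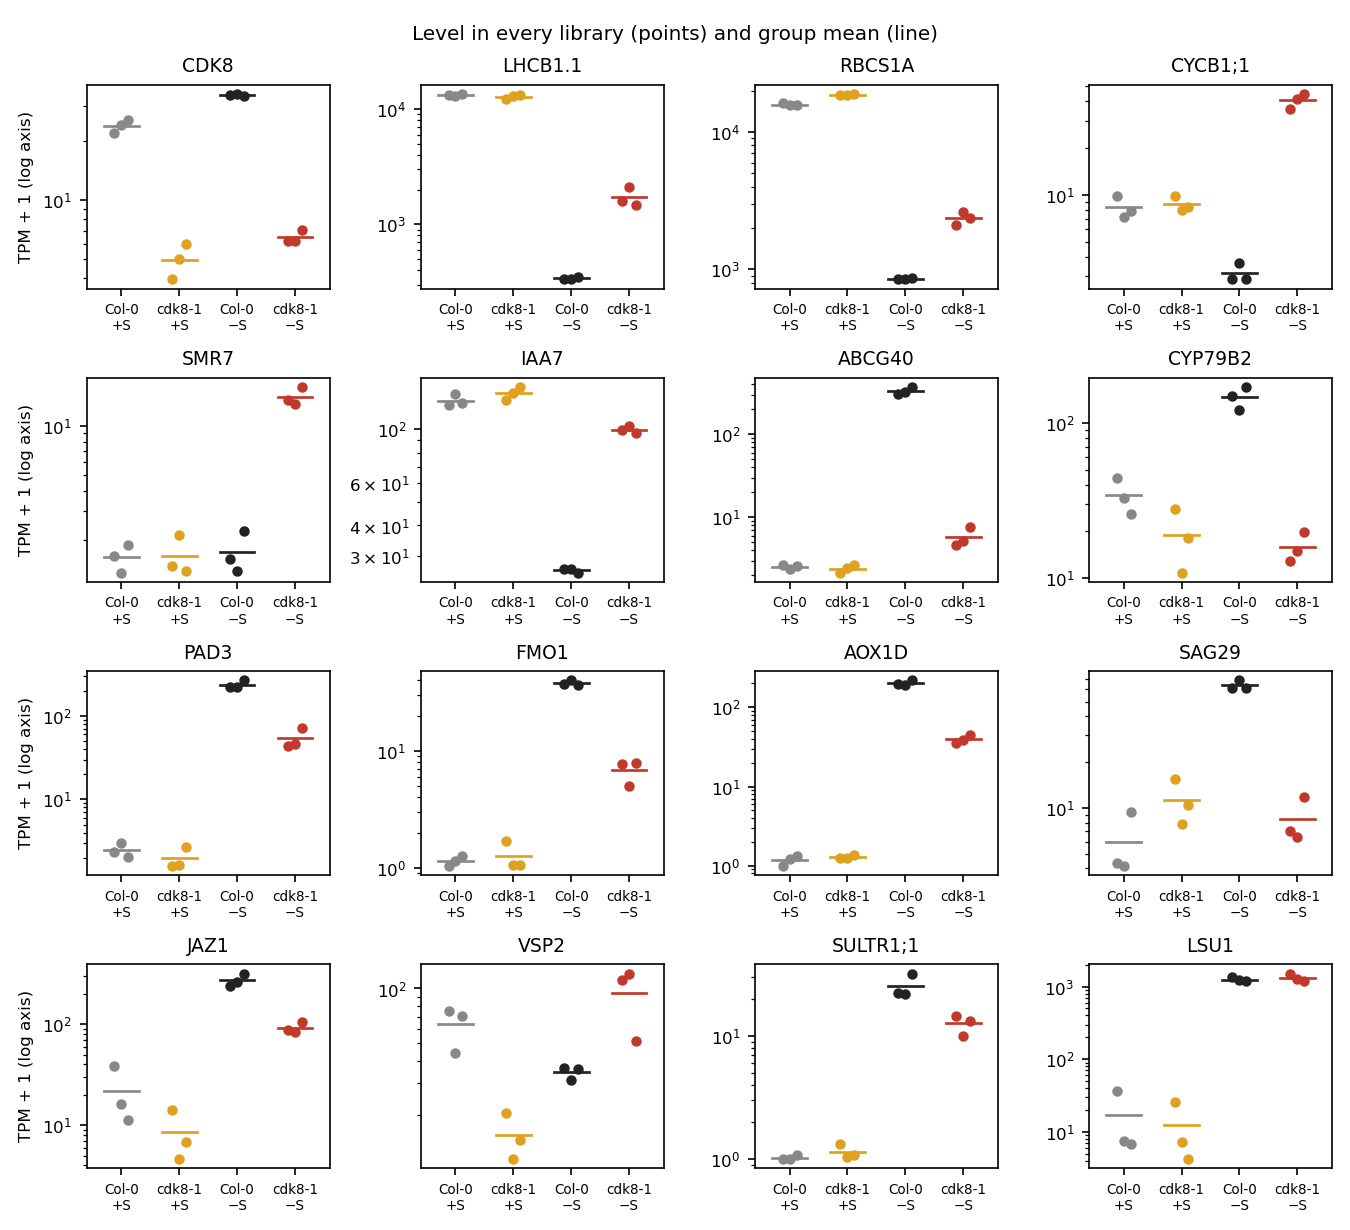
Level in TPM + 1 (y axis, log scale) of 16 genes in each of the 12 libraries (points) with group means (lines), with sulfate (+S) and without (−S). CDK8 was lower in cdk8-1 at both supplies, and LSU1 was at 16.0 and 11.3 TPM with sulfate in Col-0 and cdk8-1 and at 1174 TPM or more in all 6 libraries without.

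Of 23 tau class glutathione transferases, detoxifying enzymes that join glutathione to foreign or damaged molecules, 12 fell and 2 rose (median -0.44). Among all loci 15.0% fell and 26.3% rose. GSTU3 was at 77.7, 80.6 and 116 TPM in the wild type and 2.78, 3.97 and 5.90 TPM in the mutant (log2 fold change -4.17, SE 0.20, limma adjusted p = 3.4e-08). GSTU1 was at 112, 128 and 149.8 TPM in the wild type and 27.6, 17.8 and 19.1 TPM in the mutant (log2 fold change -2.56, SE 0.22, limma adjusted p = 1.8e-06). GSTU18 went the other way, from 4.32 ± 0.442 to 13.3 ± 2.704 TPM (limma adjusted p = 2.1e-06). Genes of mitochondrial stress and alternative respiration fell in 6 of 9 cases and rose in 1. AOX1D, an alternative oxidase that bypasses part of the respiratory chain, was at 198, 189 and 218 TPM in the wild type and 34.6, 37.4 and 43.6 TPM in the mutant (log2 fold change -2.36, SE 0.12, limma adjusted p = 4e-08). AOX1A was at 629.5, 623 and 624 TPM in the wild type and 228, 241 and 246 TPM in the mutant (log2 fold change -1.39, SE 0.09, limma adjusted p = 1.5e-07). The groups were apart in both oxidases. The member that rose was AT2G21640, a marker of oxidative stress, at 188, 181 and 199 TPM in the wild type and 303, 357 and 306 TPM in the mutant (log2 fold change 0.76, SE 0.11, limma adjusted p = 0.00012). With sulfate AOX1D was at 0.183 and 0.297 TPM. NDB2, an alternative NADH dehydrogenase, was higher in the mutant there (0.51, limma adjusted p = 0.015) and lower without sulfate (-0.80, limma adjusted p = 0.00019).

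On the log2(TPM + 1) scale, iron deficiency genes differed more with sulfate than without. The median without sulfate moved with the pseudocount and in limma voom, as given below, and medians with sulfate were not taken in those fits. Without sulfate 5 of 14 rose and 1 fell (median 0.41), against 26.3% and 15.0% of all loci. With sulfate 13 rose (median 1.6), against 8.85% of all loci. For 9 of the 14 the interaction was called with a less positive difference without sulfate, against 12.2% of all loci. NAS4, which makes the iron chelator nicotianamine, was at 1.04, 0.830 and 0.246 TPM in the wild type and 7.40, 6.996 and 5.76 TPM in the mutant (log2 fold change 2.202, SE 0.25, limma adjusted p = 1.9e-05). FRO3, a mitochondrial ferric reductase, was at 23.2, 21.1 and 22.0 TPM in the wild type and 53.5, 61.8 and 65.3 TPM in the mutant (log2 fold change 1.402, SE 0.16, limma adjusted p = 2.4e-05). FER1, a plastid ferritin that stores iron, was at 417, 375 and 347 TPM in the wild type and 137, 86.6 and 116 TPM in the mutant (log2 fold change -1.76, SE 0.17, limma adjusted p = 5.3e-06), 1 of 5 that fell among 10 iron storage genes, and was lower with sulfate as well (-1.87, limma adjusted p = 5.6e-05). Another 2 of the 10 rose without sulfate, where 26.3% of all loci rose and 15.0% fell. FRO6, a shoot ferric reductase, rose from 0.280 ± 0.143 to 5.09 ± 2.69 TPM (limma adjusted p = 9.7e-06). The 4 genes did not overlap between the groups.

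**Figure D4:**
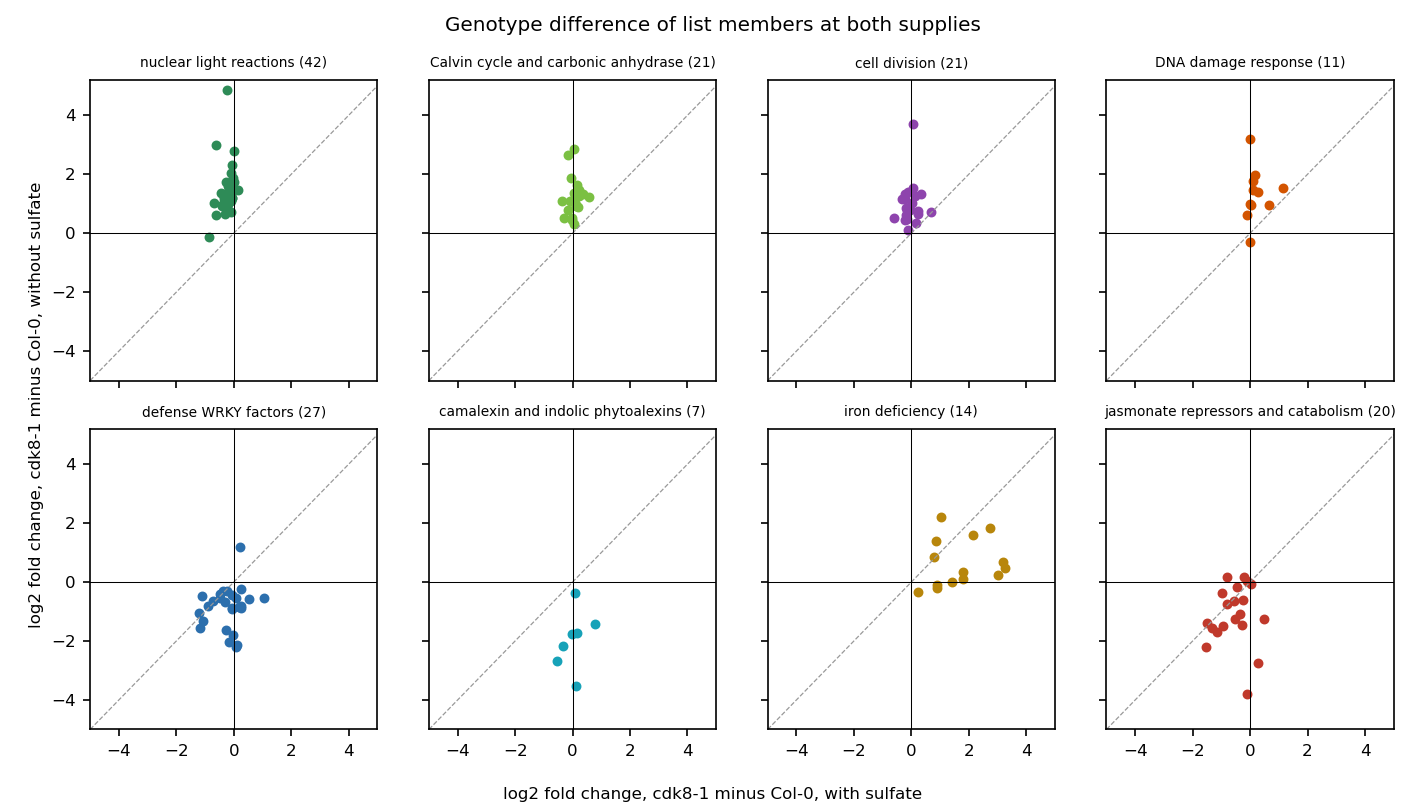
Each point is a gene of the list named above its panel, placed by the log2 fold change of cdk8-1 against Col-0 with sulfate (x axis) and without (y axis); the dashed line marks equal differences. Light-reaction and Calvin cycle genes lie above the line and camalexin genes below it, and iron deficiency genes spread to the right, with medians of 1.6 with sulfate and 0.41 without. The latter median moved with the pseudocount and in limma voom.

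Counts in the remaining lists stand against the 41.3% of all loci that were called. Of 16 phosphate starvation and sulfolipid genes 3 rose and 3 fell. Of 16 nitrogen assimilation genes 6 rose and 2 fell; GLN2, the plastid glutamine synthetase, rose from 195 ± 8.85 to 378 ± 10.7 TPM, and NIA2, nitrate reductase, fell from 1553 ± 78.5 to 911 ± 71.6 TPM (limma adjusted p = 5.3e-08 and 8.8e-05). Of 17 genes of the abscisic acid and cold-drought response 2 rose and 6 fell, and ABI1, a protein phosphatase that restrains the hormone's signal, fell from 98.9 ± 2.37 to 68.9 ± 2.07 TPM (limma adjusted p = 5.2e-05). Of 19 flavonoid and anthocyanin genes 3 rose and 4 fell. PAP1 and PAP2 are MYB activators of anthocyanin synthesis. PAP1 was at 72.1, 52.6 and 44.2 TPM in the wild type and 24.0, 11.4 and 10.0 TPM in the mutant. PAP2 was at 10.3, 10.4 and 11.2 TPM in the wild type and 1.34, 0.551 and 1.22 TPM in the mutant, and neither gene's groups overlapped (log2 fold changes -1.90 and -2.54, limma adjusted p = 0.0003 and 5.2e-07). Of 15 clock genes none rose and 6 fell, and leaving out any Col-0 library without sulfate, or cdk8-1 replicate 2, left 3.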

How the data were processed

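The authors deposited 1 table of TPM, transcript abundances scaled by gene length and library total; per the submitters' processing notes STAR 2.7.11b, featureCounts 2.0.8 and DESeq2 1.46 were used, and the build was not given in the sources used here. Libraries were grouped by their labels. Loci averaging 1 TPM or more in the 12 libraries entered a fit of log2(TPM + 1) in limma 3.58.1 (R 4.3.3), with group means over all 12 libraries, a trended variance and Benjamini-Hochberg adjustment at 0.05 over all loci; fold changes on this scale understate changes of low genes. The test was checked on simulated data. Whole reads, for depth and an alternative fit, were recovered from the TPM with RefSeq exon lengths (tolerance 0.01) for 25759 loci directly and 125 after a search over lengths; 24 loci gave none and 6925 were at 0. The TPM of Col-0 with sulfate replicate 3 summed to 1004125.4 and of the others to 1000000. Names, products and promoters came from RefSeq TAIR10.1, matched by locus. Named genes were CDK8 and the 12 largest rises and falls without overlap between groups. Also named were the 5 largest interactions in each direction among loci called without sulfate. So were up to 6 called members of each list by p and all of 4 lists. ICS1, PR1, SOG1, WRKY50, WRKY53, WRKY70 and the members named as not passing were chosen after their values were seen. The members and lists were chosen with earlier results of these data known. Alternatives were other pseudocounts, filters, scalings and variance models, 6 libraries alone, a replicate block, limma voom and leaving out each library.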

Additional observations from a re-analysis of the deposited data

Results flagged for a closer look

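The genotype difference depended on supply, by the limma interaction test, at 2831 loci with a more positive and 2340 with a more negative difference without sulfate. The values below are interactions on the log2 scale, the difference of cdk8-1 from Col-0 without sulfate less that with sulfate. Interactions were ranked only among loci also called without sulfate. The 5 largest positive ones were those of LHCB2.3 at 5.12, GASA6 at 4.19, AT1G30170, a DUF295 protein, at 4.05, AT2G10940 at 3.89 and AT2G33850, an E6-like protein, at 3.70. AT1G30170 was at 1.42, 0.807 and 0.363 TPM in the wild type and 32.5, 35.6 and 31.1 TPM in the mutant, and with sulfate at 0.0201 and 0.152 TPM. The 5 largest negative ones were those of ABCG40 at -5.79, TH8 at -4.18, AT2G15780, a cupredoxin, at -4.14, GSTU3 at -4.06 and SAG29 at -3.94. AT2G15780 was at 12.7, 16.7 and 28.9 TPM in the wild type and 0, 0.143 and 0.0854 TPM in the mutant, and with sulfate at 0.0257 and 0 TPM. AT1G30170, TH8, AT2G15780 and GSTU3 were below 1 TPM on average in both genotypes with sulfate. A genotype difference could hardly show there on the log2(TPM + 1) scale. Their interactions therefore mostly repeat the differences without sulfate, which were 4.23, -4.47, -4.17 and -4.17.

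Of the named genes, 8 were called in opposite directions at the 2 supplies. Those higher in the mutant without sulfate and lower with it were VSP2, with an interaction of 3.39, EXPA3, an expansin, at 2.07, AOC1 at 1.68, PSAG, a photosystem I subunit, at 1.58 and CRD1, a cyclase of chlorophyll synthesis, at 1.38. Genes on the other strand overlap a fraction of 0.61 of the exonic length of PSAG, 0.13 of that of CRD1 and 0.11 of that of RVE1, so their values are uncertain. EXPA3 went from 39.4 and 28.3 TPM in Col-0 and cdk8-1 with sulfate to 1.34 ± 0.456 TPM in the wild type and 6.03 ± 0.217 TPM in the mutant without (SD, n = 3). Those lower without sulfate and higher with it were CYP71A12 at -2.21, RVE1, a clock-regulated MYB-like factor, at -1.39 and NDB2 at -1.31. RVE1 had log2 fold changes of -0.64 without sulfate and 0.75 with it (limma adjusted p = 0.034 and 0.04). No group had the 4 libraries that a test for single outlying libraries needs.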

How the results depend on the processing

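Across 16 alternatives the number of loci called without sulfate lay between 6583 and 8694, with 7900 as reported. Leaving out single libraries gave 6583 to 6976, the 6 libraries without sulfate alone 8694 and limma voom on recovered reads 8475. The higher calls with sulfate, 1693 as reported, were 850 after median-of-ratios scaling, 993 after quantile scaling and 1112 to 1525 when single libraries were left out, the lowest without cdk8-1 with sulfate replicate 1 or 3 (1112 and 1113). Of 240 named genes called without sulfate, 218 kept direction and call throughout, 22 lost the call under at least 1 alternative and 0 reversed. Some interactions changed sign, with a call in the reported or the alternative fit. They were AT1G13609 at 2.41 with a pseudocount of 0.1 TPM and BGLU28 at -0.41 with 5 TPM. The others were CYP94B3 at 0.54 in limma voom and NIA2 at -0.60 after quantile scaling. In the reported fit AT1G13609 at -0.62 and BGLU28 at 0.10 were not called (limma adjusted p = 0.36 and 0.75). CYP94B3 was called there at -1.16 (limma adjusted p = 0.0049). The cause was not tested. The DNA damage count fell from 10 to 5 with a minimum mean of 5 TPM, where fewer genes were tested. The median of cell division genes moved from 0.80 to 1.48 in limma voom and 0.31 with a pseudocount of 5 TPM, and that of iron deficiency genes from 0.41 to 1.55 and 0.10. The deviations of same-numbered libraries from their group means correlated at 0.017 to 0.131 between the genotypes without sulfate, at 0 to 0.305 between them with sulfate, at 0.016 to 0.156 between the supplies in Col-0 and at 0.075 to 0.263 in cdk8-1, and 4 of 6 differently numbered pairs were negative in each set. A cut of 0.1 was chosen, and not every pair exceeded it, so the numbers were not taken to pair the libraries. Even so, 4 of 6 libraries, or 5 of 6 in the last set, correlated best with their own number. Whether replicate number had an effect of its own was not tested. With sulfate APR3 was at 203, 109 and 58.8 TPM in the wild type and 193, 107 and 58.1 TPM in the mutant, in order of replicate number. APR1, SHM7, SDI1 and LSU1 also fell in that order in both genotypes with sulfate, whereas other sulfur markers, such as LSU4 and SULTR4;1, did not. With a replicate block 8377 loci were called without sulfate, 3220 with sulfate and 5718 in the interaction. TPM are shares of a library, so a change in total RNA per shoot could not be seen, and the number of libraries, 3 a group, limits the precision.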

Other observations

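The following gene families were picked by the words of their annotation after the values had been seen, so their counts are descriptions. They stand against 26.3% of all loci called higher and 15.0% called lower. MLP-like genes were higher in cdk8-1 without sulfate in 8 of 8 cases, with a median log2 fold change of 2.22 against 0.08 over all loci, and 6 passed after median-of-ratios scaling. D-type cyclins, which drive entry into the cell cycle, rose in 8 of 10 cases, tubulins in 11 of 22 with 0 falling, and histones in 25 of 46 with 4 falling. SAUR genes, many of which respond to auxin, rose in 19 of 42 cases and fell in 5, and GDSL lipases rose in 22 of 48 and fell in 5. Genes with a chloroplast or bacterial-type ribosomal protein annotation rose in 7 of 11 cases, with 0 falling.

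Heat shock protein genes fell in 21 of 60 cases and rose in 5. MAPKKK genes, kinases at the head of signalling cascades, fell in 7 of 13 and rose in 0. GH3 genes, many of which conjugate hormones to amino acids, fell in 5 of 10 and rose in 0. NAC factors fell in 20 of 53 cases and rose in 7, and UDP-glycosyltransferases fell in 30 of 84 and rose in 15. TIR-NBS-LRR disease resistance genes had 13 higher and 13 lower of 65, against 26.3% and 15.0% of all loci. The remaining genes annotated as ribosomal proteins, without words for a plastid, mitochondrial or bacterial type, had 45 higher and 18 lower of 294. This match by words does not show that all of them belong to cytosolic ribosomes. After median-of-ratios scaling 33 were higher and 60 lower, so the direction of the set depended on the scaling. With sulfate 63 were higher and 0 lower on the deposited scale.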
